A study of Mus musculus with 6 samples.

Results

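The libraries described here are those numbered 2, which are 2 of the 6 libraries of the series. One is labelled as carrying a control hairpin (shControl 2) and the other a hairpin against Irs2 (shIRS2 2), and both were set against the 4 libraries numbered 1 and 3 with the hairpin as a covariate. The number 2 was chosen by the RNA values themselves, because these libraries stood apart in earlier results of the same data. The differences that follow are therefore a description and carry no test. All 6 libraries are labelled as Glu-tag, an enteroendocrine cell line from the mouse whose usual product is proglucagon. The RNA goes against this label, since Gcg, which encodes proglucagon, and several other defining genes had 0 counts in every library. It also goes against the hairpin labels, since Irs2 was not lower in the libraries labelled sh-IRS2, and shIRS2 below names only the label. The labels give the tissue as small intestine and the genotype as WT for the 3 libraries titled sh-control, and as IRS2 Knockdown for the 3 titled sh-IRS2. No agent, time or culture condition is labelled, and among the labels only the titles carry the numbers 1, 2 and 3. The column names of the deposited counts carry the numbers too. Whether a number marks a shared culture, day or lane is not given in the sources used here.

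Cells that lack amino acids or carry misfolded protein phosphorylate the initiation factor eIF2, which lowers protein synthesis in general and favours translation of the transcription factor ATF4. ATF4 then switches on genes for amino acid synthesis and uptake together with its own brakes, and this programme is called the integrated stress response. In growing cells, factors that build ribosomes are made under MYC and growth factor signalling. Oxygen and glucose add further inputs, through hypoxia-inducible factors and through the glucose sensors ChREBP and MondoA.

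Both libraries numbered 2 held less RNA of the integrated stress response and of most listed hypoxia genes than the other 4. RNA of ribosome assembly factors was higher in both. YAP-linked genes were more often higher than lower. Growth factor genes went both ways, with Hbegf and Ereg higher and Pgf and Vegfa lower. Of 6 marker genes, themselves picked with these values known, Trib3, Chac1 and Sesn2 were lower, and Txnip, Csf1 and Fosl1 were higher, in both libraries numbered 2 than in all 4 others. RNA for cell division, cytosolic ribosomal proteins and nuclear-encoded subunits of the respiratory chain lay close to equal. In bulk RNA such as this, fewer cells in a given state and less RNA per cell cannot be told apart.

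Stretches of 4 promoters are shown because their genes are among those that moved most or are textbook examples of the pathways concerned. Each runs from 250 bases before to 50 bases after the start site, 5′ to 3′ on the gene's strand, and is credited to RefSeq, build GRCm38.p6. In Chac1 and Trib3 the capitals mark TGNNGCAA, the letters at which ATF4 pairs with C/EBP factors, on either strand. In Asns they mark TGATGNAA, a related form of the element that shares some but not all matches with TGNNGCAA. In Txnip they mark the glucose-response arrangement, which is CACGNG and then CNCGNG after a gap of 5 bases.
Chac1, chr2:119350992-119351291, plus strand: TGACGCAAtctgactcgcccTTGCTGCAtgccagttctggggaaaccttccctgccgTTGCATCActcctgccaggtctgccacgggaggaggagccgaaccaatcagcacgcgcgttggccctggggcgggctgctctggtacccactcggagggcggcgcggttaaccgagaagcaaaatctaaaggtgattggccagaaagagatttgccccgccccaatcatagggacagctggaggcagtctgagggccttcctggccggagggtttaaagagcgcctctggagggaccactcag
Trib3, chr2:152344011-152344310, minus strand: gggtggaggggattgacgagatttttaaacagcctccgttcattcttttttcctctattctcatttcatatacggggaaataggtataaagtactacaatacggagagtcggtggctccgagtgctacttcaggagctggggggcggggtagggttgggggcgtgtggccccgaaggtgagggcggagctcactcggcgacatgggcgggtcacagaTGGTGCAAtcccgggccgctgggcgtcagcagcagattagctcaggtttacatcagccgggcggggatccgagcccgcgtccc
Asns, chr6:7693160-7693459, minus strand: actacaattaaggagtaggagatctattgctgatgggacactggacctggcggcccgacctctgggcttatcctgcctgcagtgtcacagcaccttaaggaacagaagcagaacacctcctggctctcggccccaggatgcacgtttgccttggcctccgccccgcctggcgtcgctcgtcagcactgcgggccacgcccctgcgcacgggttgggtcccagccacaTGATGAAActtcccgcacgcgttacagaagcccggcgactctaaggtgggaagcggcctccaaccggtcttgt
Txnip, chr3:96557707-96558006, plus strand: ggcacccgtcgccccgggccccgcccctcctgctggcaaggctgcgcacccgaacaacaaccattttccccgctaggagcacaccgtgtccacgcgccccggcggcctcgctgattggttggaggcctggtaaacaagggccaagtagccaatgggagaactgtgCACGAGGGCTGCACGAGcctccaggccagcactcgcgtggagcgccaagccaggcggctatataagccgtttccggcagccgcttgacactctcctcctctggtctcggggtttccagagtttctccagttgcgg
The 3 matches in Chac1 lie at -250 to -243, -230 to -223 and -193 to -186 from the start site, and the last of them is also a match to TGATGNAA. Trib3 has its TGNNGCAA match at -33 to -26 and a match to TGATGNAA at 15 to 22, which is not capitalised. Asns has its match at -23 to -16, and Txnip has its paired match at -85 to -69. Of the 27 genes in the integrated stress response list, 22 were matched to 30 promoters by symbol. TGATGNAA was present in 8 of these 30 promoters, or 26.7%, against 3.97% of all 32851 promoters of this length, and TGNNGCAA in 9 of 30, or 30%, against 11.4%. The 2 motifs can overlap, as they do in Chac1. The paired motif was present in 2 of 10 promoters of the glucose-responsive list, those of Txnip and Pklr, and in 0.365% of all promoters. The motifs were chosen after some of these promoters had been read. A match is a description of the letters only.

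The genes that set the libraries numbered 2 apart most clearly belong to the ATF4 programme. Trib3 (ENSMUSG00000032715, minus strand of chromosome 2, 152337422 to 152344032), a pseudokinase that restrains Akt and ATF4, stood at 121, 22.4 and 134 CPM in shControl libraries 1, 2 and 3 and at 110, 21.5 and 102 CPM in the shIRS2 libraries. CPM is the count of a gene divided by all counts of its library and scaled to 1000000. Library 2 was the low one in each group, at less than any of the 4 others. The log2 difference between number 2 and the others was -2.37 (SE 0.10), which is 5.19-fold lower. Chac1 (ENSMUSG00000027313, plus strand of chromosome 2, 119351229 to 119354381), which degrades glutathione, held 23.7, 3.13 and 27.7 CPM in shControl and 24.2, 3.10 and 21.8 CPM in shIRS2. It was 7.65-fold lower in number 2 (log2 -2.94, SE 0.16), and the groups did not overlap. Sesn2 (ENSMUSG00000028893, minus strand of chromosome 4, 132492032 to 132510501), a leucine sensor that restrains mTORC1, held 114, 38.3 and 114 CPM in shControl and 105, 33.3 and 103 CPM in shIRS2. Its difference of -1.58 (SE 0.08) was again set by number 2 alone, since libraries 1 and 3 differed by -0.01 (SE 0.08).

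**Figure D1:**
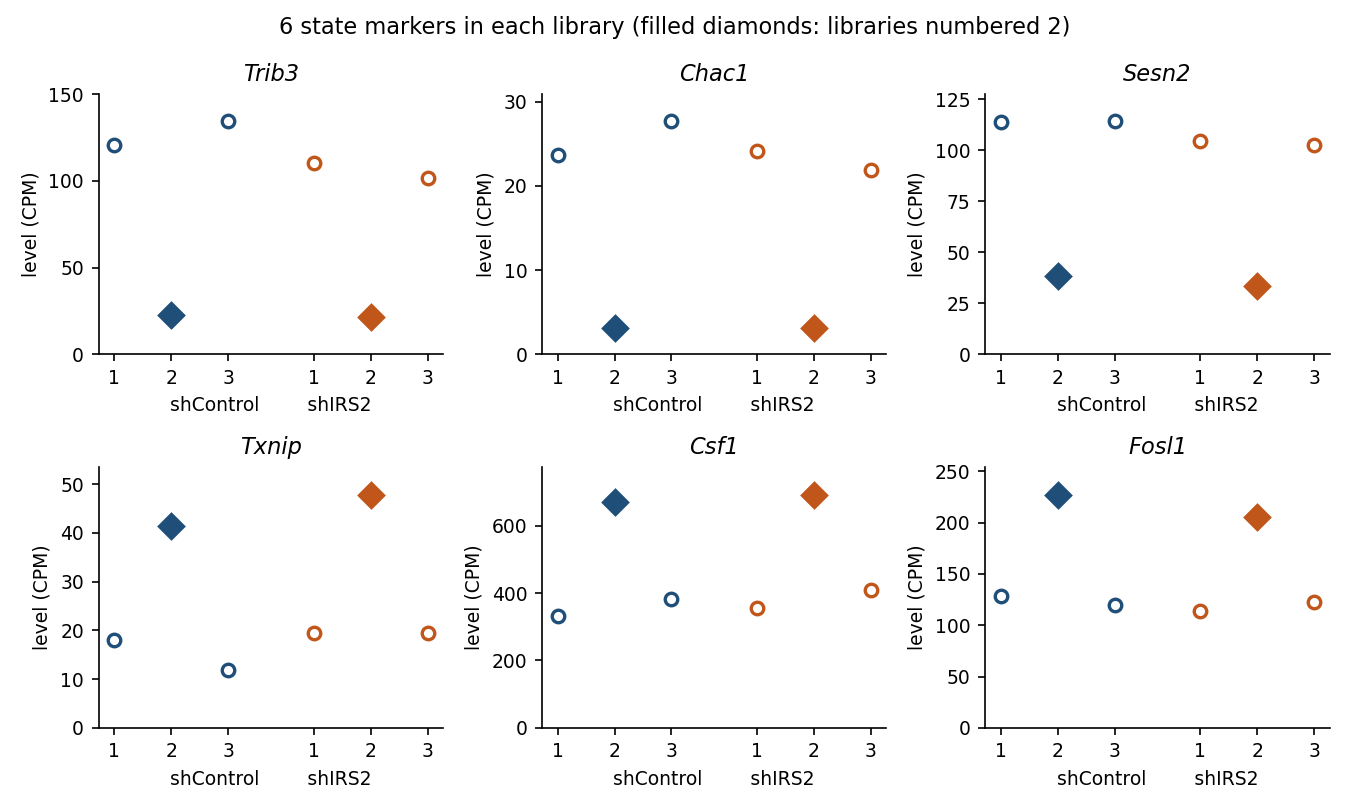
Level in CPM (linear axis from 0) of 6 marker genes in each library, with shControl in blue and shIRS2 in orange, and filled diamonds for the libraries numbered 2. Trib3, Chac1 and Sesn2 are lowest, and Txnip, Csf1 and Fosl1 highest, in the 2 diamonds of each panel.

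Txnip, Csf1 and Fosl1 moved the other way. Txnip (ENSMUSG00000038393, plus strand of chromosome 3, 96557957 to 96561883), an inhibitor of thioredoxin and of glucose uptake, held 17.9, 41.4 and 11.8 CPM in shControl and 19.4, 47.8 and 19.4 CPM in shIRS2. It was 2.69-fold higher in number 2 (log2 1.42, SE 0.12). Csf1 (ENSMUSG00000014599, minus strand of chromosome 3, 107741048 to 107760469), the macrophage growth factor, held 331, 670 and 381 CPM in shControl and 356, 692 and 411 CPM in shIRS2. Both libraries numbered 2 lay above the range of the other 4, at a log2 difference of 0.91 (SE 0.08). Fosl1 (ENSMUSG00000024912, plus strand of chromosome 19, 5447703 to 5455945), an AP-1 subunit induced by ERK signalling, held 129, 227 and 120 CPM in shControl and 114, 206 and 123 CPM in shIRS2. Its log2 difference was 0.86 (SE 0.07), and the 4 libraries numbered 1 and 3 lay between 114 and 129 CPM.

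Over the whole transcriptome the differences were many and mostly small. Of 11492 protein-coding genes tested, 2499 had an adjusted p under 0.05 in the edgeR fit, and these are referred to as called. They comprised 1213 higher in number 2, which is 10.6% of the genes tested, and 1286 lower, which is 11.2%. Since the libraries were selected on these values, the counts describe the size of the pattern and nothing is read from them as a test. Only 24 called genes were at least 2-fold higher and 100 at least 2-fold lower, while 1939 differed by less than 1.5-fold. Both libraries numbered 2 lay above all 4 others in 2015 genes (17.5%) and below all 4 in 2966 genes (25.8%). These shares are the background against which the counts for each gene list stand. The ranges use CPM without the scaling factors of the fit. Those factors were lowest in number 2, at 0.9895 in shControl and 0.9825 in shIRS2, against 1.001 to 1.018 in the others. The ranges and the calls are therefore scaled differently. Called genes that were higher had a median level of 69.8 CPM and those that were lower 36.4 CPM, against 32.8 CPM for genes not called. Just inside the threshold were Tpra1 (log2 -0.40), Prpf39 (0.25) and Phf20 (-0.29), and just outside it Pmm2 (0.26), Fkbp8 (-0.31) and Wipi2 (-0.22). With shControl 2 left out the number called was 413, and with shIRS2 2 left out it was 535, each then resting on 1 library numbered 2.

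The libraries numbered 1 and 3 gave no second pattern of this size. Between them 32 protein-coding genes were called (0.278%), of which 14 were higher in number 3. The number of all genes called between 3 and 1 was 64 to 264 when single libraries were left out, the highest without shIRS2 3. Among the 8762 protein-coding genes whose mean reached 10 CPM, 35 differed at least 2-fold in number 2 and 3 did so between 3 and 1. The SD of log2 differences between the 2 libraries numbered 2 was 0.167 over these genes. It ran from 0.282 to 0.340 between a library numbered 2 and any other, and from 0.146 to 0.207 among the other 4. The first principal component held 41.9% of the variance and placed shControl 2 at 28.7 and shIRS2 2 at 23.5, with the others from -16.9 to -6.84. Library totals ran from 14991019 to 19790073 counts, and number 2 was the largest in shControl and intermediate in shIRS2. Transcripts of the mitochondrial genome took 1.63% and 1.71% of counts in number 2 and 1.25% to 1.61% in the others, and ribosomal protein genes 5.53% and 5.34% against 5.60% to 5.99%. The part of these shares in the results was not tested.

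Within each hairpin group the difference was computed again, as log2 CPM of library 2 minus the mean of libraries 1 and 3. Across the 8762 genes the values in shControl and shIRS2 had a Pearson correlation of 0.844, which is across genes, and genes are not independent replicates. For the difference of library 3 minus library 1 the same correlation was 0.0576. Both libraries numbered 2 stood apart when the number was chosen, so these correlations and the term that follows may not be free of that choice. The product of hairpin and number asks whether the difference varied with the hairpin. One of 13472 genes passed edgeR's quasi-likelihood test of that term (0.00742%), and none of the protein-coding genes did. It is a processed pseudogene, described among the results for a closer look. At an unadjusted p under 0.05 there were 155 genes, fewer than the 673.6 that evenly spread p-values would give, and DESeq2 also called 1. Leaving out shControl 1, shControl 3 or shIRS2 1 moved the number called to 17, 13 and 2. A count near 0 does not show that the hairpin left the difference unaltered.

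**Figure D2:**
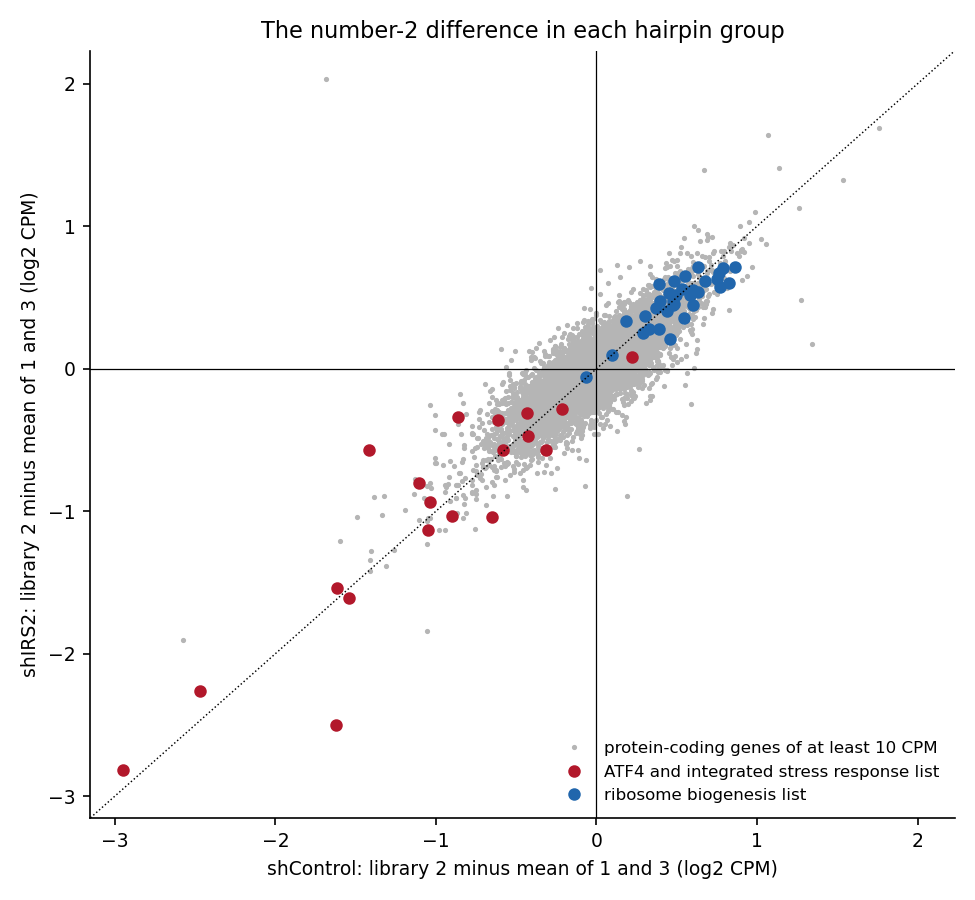
Log2 CPM of library 2 minus the mean of libraries 1 and 3, in shControl (x axis) and in shIRS2 (y axis), for protein-coding genes whose mean reached 10 CPM. Genes of the integrated stress response list (red) lie mostly in the lower left and those of the ribosome biogenesis list (blue) in the upper right, near the dotted line of equal difference.

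Of the 24 tested genes in the list for ATF4 and the integrated stress response, 21 were called lower and none higher, and 23 lay below all 4 other libraries in both libraries numbered 2. The list median was -0.99, with -1.04 in shControl and -0.96 in shIRS2, against -0.02 over all protein-coding genes tested. Library by library, relative to the mean of the 4 others, the median was -0.06, -1.08 and 0.11 in shControl and 0.01, -0.93 and -0.14 in shIRS2. With shControl 2 left out 14 members were called lower, and with shIRS2 2 left out 15. Gdf15, a stress-induced hormone, held 8.61, 1.72 and 12.5 CPM in shControl and 8.95, 1.52 and 8.69 CPM in shIRS2, a log2 difference of -2.55 (SE 0.22). Ddit4, an mTORC1 inhibitor that also answers to hypoxia, held 211, 75.1 and 264 CPM in shControl and 267, 80.5 and 213 CPM in shIRS2, a difference of -1.59 (SE 0.12). In both genes the libraries numbered 2 lay far below the range of the others. Atf4 itself was 1.29-fold lower (log2 -0.37, SE 0.07), at 684, 481 and 644 CPM in shControl and 625, 464 and 552 CPM in shIRS2. Ddit3, which encodes the death-promoting factor CHOP, was 2.00-fold lower (SE 0.12 on the log2 scale). Asns, asparagine synthetase, was 1.49-fold lower (log2 -0.58, SE 0.08). Most other members of the list differed more than Atf4 on the log2 scale.

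The 3 tested members that were not called lower were Atf3, Atf5 and Tnfrsf10b. Atf3, a stress-induced repressor, held 22.9, 7.48 and 24.7 CPM in shControl and 33.6, 3.83 and 15.3 CPM in shIRS2. Its difference was large (-2.06) but so was its error (SE 0.50). Atf5 and Tnfrsf10b were chosen after their values were seen. Atf5, a mitochondrial stress factor, was likewise below all 4 others (-0.99, SE 0.29), and Tnfrsf10b, a death receptor, was the single member with a positive difference (0.15, SE 0.09). The members Vldlr, Stc2 and Pmaip1 had 0 counts in all 6 libraries, which allows up to 0.0295 CPM taken as 3 counts over all libraries.

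**Figure D3:**
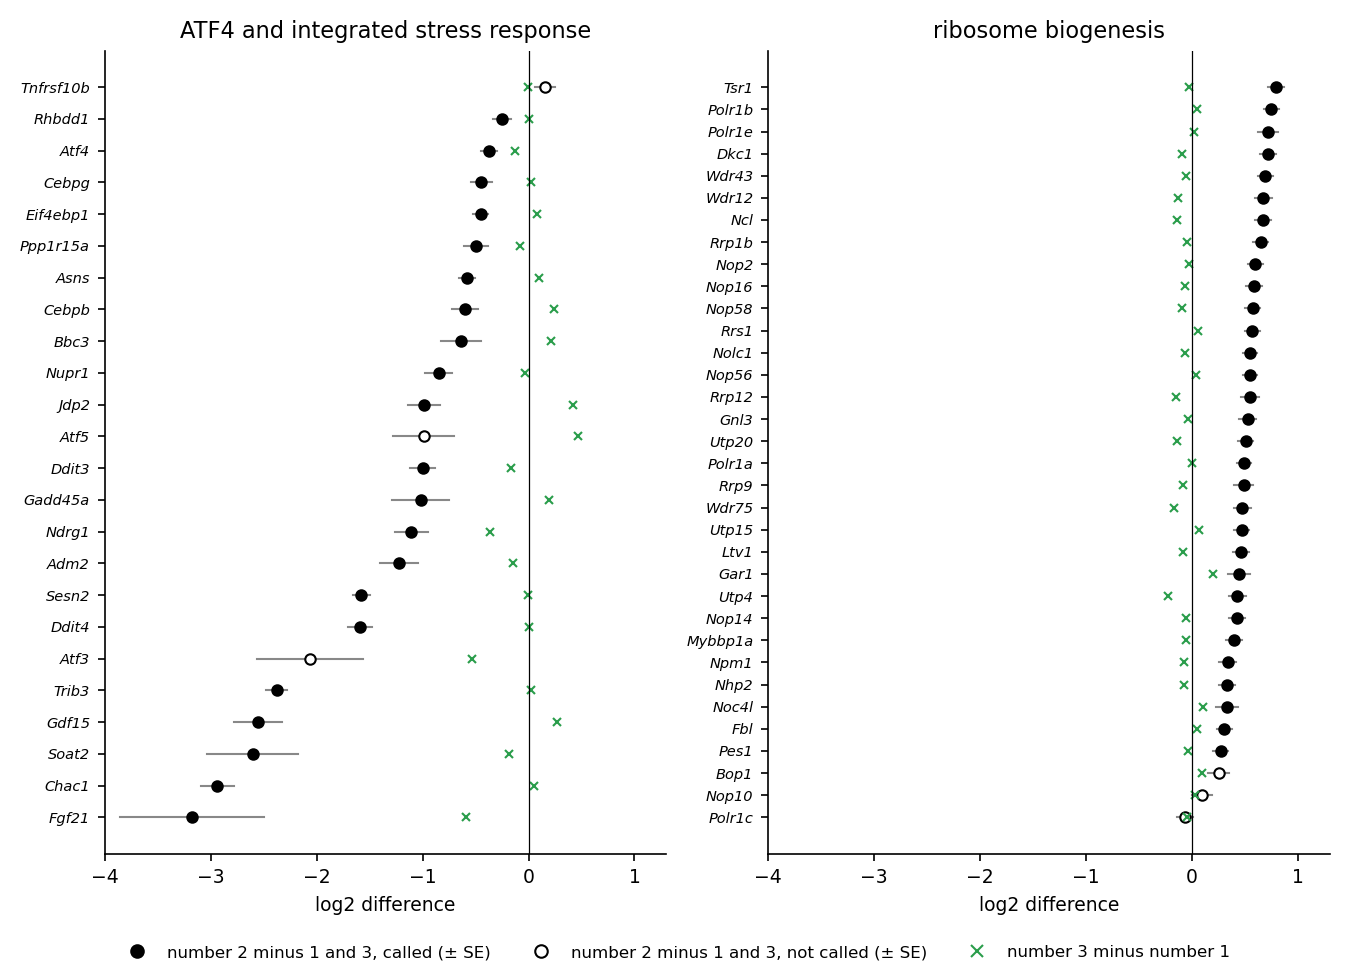
Log2 difference of the libraries numbered 2 from those numbered 1 and 3 with its SE (circles, filled where called) and log2 difference of number 3 from number 1 (green crosses) for each tested gene of 2 lists. Circles lie to the left for 23 of 24 genes of the integrated stress response and to the right for 33 of 34 genes of ribosome biogenesis, while the crosses stay nearer 0 for most genes.

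Enzymes and transporters for amino acids followed the stress genes in part. In the list of serine, glycine and one-carbon enzymes 6 of 14 were called lower and 4 higher. Those lower included Pck2, the mitochondrial PEP carboxykinase (log2 -1.43, SE 0.24), Aldh1l2, a mitochondrial folate enzyme (-1.07, SE 0.18), and Psph, the last enzyme of serine synthesis (-0.91, SE 0.08). Psph stood at 82.6, 43.6 and 89.1 CPM in shControl and 84.3, 43.7 and 78.3 CPM in shIRS2, so that both libraries numbered 2 held close to the same low level. Mthfd2 (-0.38, SE 0.08) and Shmt2 (-0.33, SE 0.10), which process folate in mitochondria, were lower to a smaller degree. Those called higher included Tyms (0.33, SE 0.08), Shmt1 and Mthfd1, which act in cytosolic folate and thymidylate synthesis, and the last 2 were chosen after their values were seen. These named members of the mitochondrial and of the cytosolic arm of folate metabolism differed in direction. Phgdh, which opens serine synthesis and was also chosen after its values were seen, differed by -0.07 (SE 0.08). Leaving out shControl 2 or shIRS2 2 left 1 and 2 members called lower and none higher.

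Among 13 other enzymes of amino acid synthesis 4 were called lower, Gpt2, Cth, Asns and Aldh18a1, and none higher. Gpt2, which makes alanine in mitochondria, held 137, 72.7 and 174 CPM in shControl and 159, 62.8 and 143 CPM in shIRS2 (log2 -1.15, SE 0.10). Cth, which makes cysteine, was lower by the same measure at -0.78 (SE 0.15), and Aldh18a1, which opens proline synthesis, at -0.50 (SE 0.10). Of 13 amino acid transporters 5 were called lower and 1 higher. Slc7a11, the cystine importer, held 13.8, 7.53 and 18.9 CPM in shControl and 17.6, 3.65 and 10.5 CPM in shIRS2 (-1.44, SE 0.28). Slc6a9, a glycine transporter, differed by -0.97 (SE 0.20) and Slc1a4, which carries alanine and serine, by -0.93 (SE 0.12). The one called higher was Slc7a6, a transporter of basic amino acids (0.40, SE 0.08). Leaving out shControl 2 left 2 transporters called lower, and leaving out shIRS2 2 left 1, with none higher.

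Aminoacyl-tRNA synthetases charge transfer RNAs with amino acids, with separate sets in the cytosol and in mitochondria. Of 20 cytosolic enzymes 8 were called lower and 2 higher, at a list median of -0.16. Cars, for cysteine, held 126, 90.1 and 130 CPM in shControl and 115, 71.8 and 110 CPM in shIRS2 (log2 -0.54, SE 0.08). Aars, for alanine, and Sars, for serine, differed by -0.47 (SE 0.07) and -0.40 (SE 0.07). Kars, for lysine, went the other way at 0.35 (SE 0.07), and so did Rars, for arginine, chosen after its values were seen, at 0.27 (SE 0.07). Of 17 mitochondrial enzymes 3 were called higher, Mars2, Wars2 and Yars2, and none lower, at a list median of 0.04. A difference between the 2 lists was not tested. Mars2, for methionine, held 45.4, 71.5 and 47.5 CPM in shControl and 41.3, 72.2 and 47.6 CPM in shIRS2 (0.69, SE 0.08). Lars2, for leucine, was lowest in library 3 of each group, at 474 and 622 CPM, against 760 to 1239 CPM in the other 4 libraries, and was not called in number 2. With shControl 2 or shIRS2 2 left out 3 and 2 cytosolic enzymes were called lower and none higher, and 1 mitochondrial enzyme was called in each case.

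Genes of protein folding that were called were more often lower than higher. Of 22 tested genes for endoplasmic reticulum chaperones and the unfolded protein response 6 were called lower and none higher, at a list median of -0.11. Herpud1, a factor of protein degradation from the endoplasmic reticulum, held 80.7, 27.7 and 78.8 CPM in shControl and 72.5, 36.7 and 82.1 CPM in shIRS2 (log2 -1.26, SE 0.10). Ero1l, the oxidase for disulfide bonds and also a hypoxia gene, held 255, 129 and 290 CPM in shControl and 371, 152 and 278 CPM in shIRS2 (-1.06, SE 0.11). Xbp1, a transcription factor of this response, differed by -0.65 (SE 0.08). Hspa5, the main chaperone of the compartment, was not called at -0.10. Among 20 heat shock factor targets and cytosolic chaperones 3 were called higher and 5 lower. The 3 were Hspd1, Cct3 and Cct5, parts of folding chambers, chosen after their values were seen. The 5 were Dnajb4 (-0.75, SE 0.09), Dnajb1, Hspb8, Bag3 and Hspa4l, all cochaperones or chaperones. Hspa1b, an inducible HSP70, ranged from 7.18 and 11.7 CPM in number 2 to between 29.2 and 67.0 CPM in the others, but was not called (-2.31, SE 0.59). Left without either library numbered 2 in turn, 3 of the endoplasmic reticulum list and 1 of the cytosolic list were called lower and none higher.

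The hypoxia list was lower as well. Of 20 tested genes 13 were called lower and 1 higher, and 17 lay below all 4 others, at a list median of -0.49 (-0.55 and -0.37 for library 2 of shControl and shIRS2 against the 4 others). Vegfa, which directs vessel growth, held 140, 74.9 and 148 CPM in shControl and 181, 82.0 and 140 CPM in shIRS2 (log2 -0.93, SE 0.10). Ndrg1, a growth-linked stress gene, held 146, 65.6 and 132 CPM in shControl and 181, 66.0 and 120 CPM in shIRS2 (-1.11, SE 0.16). In both genes the libraries numbered 2 lay below every other library. Bhlhe40, a clock-linked repressor, differed by -1.06 (SE 0.18). Within this list the exception was Car12, a carbonic anhydrase, at 0.80 (SE 0.13). It held 18.4 and 20.0 CPM in number 2 and 9.33 to 13.4 CPM in the others. The list was chosen with earlier results known and does not stand for every gene that answers to hypoxia. Car9, the carbonic anhydrase most often used as a hypoxia marker, was chosen after its values were seen, stood at 2.43 to 3.65 CPM in all 6 libraries and was not called. Ddit4, Ndrg1 and Ero1l also belong to stress lists. Without shControl 2 there were 8 called lower, and without shIRS2 2 also 8.

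Glucose-handling genes split. Of 20 glycolysis genes 4 were called lower (20%) and 1 higher (5%), against 11.2% and 10.6% of all genes. Slc2a1, the basal glucose transporter, held 371, 193 and 381 CPM in shControl and 457, 240 and 401 CPM in shIRS2, and was 1.83-fold lower (log2 -0.87, SE 0.08). Eno2, an enolase, differed by -0.78 (SE 0.16), and Gpi1 and Pfkp, enzymes of the upper pathway, by -0.33 (SE 0.07) and -0.31 (SE 0.08). Pfkfb3, which makes the activator of phosphofructokinase, was higher at 0.37 (SE 0.09). Gapdh values lay between 14.1 and 207 CPM without regard to number or hairpin, and this gene has many processed copies that can share reads. Among 9 glucose-responsive genes of ChREBP and MondoA 2 were called higher (22.2%), Txnip and Klf10, and 1 lower (11.1%). That called lower was Mlxipl, which encodes ChREBP itself and was chosen after its values were seen (-0.77, SE 0.24). Klf10, a zinc finger factor, held 21.9, 26.9 and 13.5 CPM in shControl and 17.1, 26.5 and 22.5 CPM in shIRS2 (0.55, SE 0.17). The sensor partners Mlxip (0.20, SE 0.08) and Mlx (-0.07, SE 0.08) were not called. The count of glycolysis genes called lower was 1 without shControl 2 and 2 without shIRS2 2.

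Ribosome assembly had the largest share of members called higher among the 46 lists. Of 34 tested genes 31 were called higher and none lower, and 31 lay above all 4 others, at a list median of 0.50. Relative to the mean of the 4 others the median was 0.06, 0.56 and 0.00 in shControl and -0.02, 0.45 and -0.05 in shIRS2. Tsr1, which matures the small subunit, held 98.5, 174 and 96.7 CPM in shControl and 98.7, 157 and 96.1 CPM in shIRS2 (log2 0.79, SE 0.07). Polr1b, a core subunit of RNA polymerase I, held 102, 175 and 105 CPM in shControl and 101, 163 and 104 CPM in shIRS2 (0.75, SE 0.07). In both genes the 4 libraries numbered 1 and 3 were nearly level and only the libraries numbered 2 stood out. Dkc1, the pseudouridine synthase of small nucleolar particles, differed by 0.72 (SE 0.07), as did Polr1e, a further polymerase I subunit (0.72, SE 0.09). The abundant nucleolar proteins nucleolin (Ncl, 0.67, SE 0.08) and nucleophosmin (Npm1, 0.34, SE 0.08) were chosen after their values were seen. The 3 not called were Bop1 (0.25), Nop10 (0.09) and Polr1c (-0.06), also chosen after their values were seen. Without shControl 2 there were 19 called higher, and without shIRS2 2 there were 23.

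The ribosomal proteins themselves stayed apart from this. Of 77 cytosolic ribosomal protein genes 1 was called higher and 1 lower, at a list median of -0.04. Rpl24, chosen after its values were seen, was the one higher (log2 0.95, SE 0.27). The one called lower was Rps12, with 685, 490 and 631 CPM in shControl and 616, 459 and 598 CPM in shIRS2 (-0.38, SE 0.07). Many of these genes have processed copies that can share reads. Of 26 translation initiation and elongation factors 11 were called higher and none lower, at a median of 0.21. Eif4e, which binds the messenger RNA cap, held 232, 298 and 219 CPM in shControl and 244, 305 and 237 CPM in shIRS2 (0.40, SE 0.07). Eif2b3 and Eif2b1, subunits of the exchange factor that eIF2 phosphorylation blocks, differed by 0.45 (SE 0.09) and 0.44 (SE 0.08). Left without shControl 2, none of these 11 was called, and without shIRS2 2 there were 3.

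Messenger RNAs of the mitochondrial genome were higher, while their nuclear partners were not. Of 12 mitochondrial messenger RNAs 7 were called higher, at a median of 0.33. The gene mt-Nd1 held 1562, 2293 and 1594 CPM in shControl and 1863, 2361 and 1704 CPM in shIRS2 (log2 0.50, SE 0.07), whereas mt-Co1 was not called (0.08, SE 0.08). The list also varied with hairpin among the others, from -0.18 in shControl 1 to 0.20 in shIRS2 1. Of 35 nuclear respiratory chain genes 1 was called lower, and the median was -0.00. With shControl 2 left out no mitochondrial messenger RNA was called, and with shIRS2 2 left out there were 4.

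Growth factor and AP-1 genes were mixed. Of 10 genes for the EGF receptor family and its ligands 3 were called higher and 1 lower. Hbegf, a shed ligand of the receptor, held 6.74, 17.3 and 6.27 CPM in shControl and 6.59, 14.5 and 6.13 CPM in shIRS2, and was 2.53-fold higher (log2 1.34, SE 0.13). Ereg, the ligand epiregulin, held 7.60, 12.9 and 7.23 CPM in shControl and 8.01, 12.7 and 5.69 CPM in shIRS2 (0.87, SE 0.15). Both ligands were about as high in shControl 2 as in shIRS2 2 and lower in every other library. Errfi1, a feedback inhibitor of the receptor, was higher by 0.37 (SE 0.08), Erbb2 lower at -0.31 (SE 0.10), and Egfr not called (0.05, SE 0.17). Of 20 AP-1 and immediate early genes 6 were called higher and 1 lower. Beside Fosl1, the factors Srf (0.54, SE 0.09) and Klf6 (0.41, SE 0.09) were higher, while Ier3, a survival gene of the same class, was lower at -0.83 (SE 0.09). Jun differed by 0.34, and Fos was not called. Of 24 ERK feedback and output genes 6 were called higher and 8 lower, among them Dusp1, a phosphatase of MAP kinases, at 42.0, 14.8 and 37.3 CPM in shControl and 43.8, 19.1 and 30.4 CPM in shIRS2 (-1.16, SE 0.16). The AP-1 genes called higher numbered 2 without shControl 2 and 1 without shIRS2 2, and the ERK genes called lower 2 and 3.

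Targets of YAP and TEAD, which answer to adhesion and cell density, were higher more often than lower. Of 19 tested genes on this list 10 were called higher and 2 lower, F3 and Wwtr1, which were chosen after their values were seen. Wwtr1 encodes TAZ, a relative of YAP, and stands on the list as a regulator. Ctgf, a further gene on the list, had 0 counts in all 6 libraries and was not tested. The median was 0.23 over all, with 0.28 and 0.29 for library 2 of shControl and shIRS2 relative to the 4 others. Cyr61, a secreted matricellular protein, held 24.2, 64.9 and 41.2 CPM in shControl and 33.1, 93.4 and 28.0 CPM in shIRS2 (log2 1.33, SE 0.27). It was not called without shControl 2 or without any one of the shIRS2 libraries. Amotl2, which binds YAP, held 46.0, 76.3 and 38.6 CPM in shControl and 33.0, 66.4 and 46.2 CPM in shIRS2 (0.83, SE 0.11). Ankrd1, a much used YAP target of low level chosen after its values were seen, differed by 1.63 (SE 0.23). Crim1 (0.57, SE 0.10), Ajuba (0.53, SE 0.10) and Lats2 (0.46, SE 0.12) were also higher. With shControl 2 or shIRS2 2 left out 3 members were called. Among 19 matrix genes 2 were called higher (10.5%) and 1 lower (5.26%), near or below the 10.6% and 11.2% of all genes. Thbs1, an adhesion protein, was 2.26-fold higher (1.18, SE 0.16) and Col12a1 was higher (0.46, SE 0.09), while Lama5 was lower (-0.33, SE 0.10). None of 9 integrin genes was called.

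Secreted immune signals also had calls in both directions, with 11.8% called higher and 29.4% lower, against 10.6% and 11.2% of all genes. Of 17 cytokine, chemokine and colony-stimulating factor genes 2 were called higher, Csf1 and Ccl2, and 5 lower, Lif, Tnfsf9, Nfkbia and, chosen after their values were seen, Ccl20 and Cxcl1. Ccl2, a monocyte chemokine, held 104, 142 and 109 CPM in shControl and 117, 187 and 100 CPM in shIRS2 (log2 0.63, SE 0.09). Lif, a cytokine of the interleukin-6 family, was lower (-0.59, SE 0.16), as was Nfkbia, the inhibitor of NF-kB (-0.33, SE 0.09). Of 16 interferon-stimulated genes 5 were called lower, Tap1, H2-K1, Bst2, Stat2 and H2-D1, and none higher, at a median of -0.31. H2-K1, a class I antigen-presenting molecule, held 85.1, 54.5 and 85.0 CPM in shControl and 105, 66.7 and 89.8 CPM in shIRS2 (-0.57, SE 0.09). Tap1, the peptide transporter, differed by -0.68 (SE 0.15). None of the 5 cytokine genes was called lower without shControl 2 or without shIRS2 2, and of the interferon-stimulated genes 1 and 2 were.

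Lysosome and autophagy genes were mostly lower. Of 25 tested 14 were called lower and none higher, 18 lay below all 4 others, and the median was -0.31. Neu1, a lysosomal sialidase, held 42.9, 24.0 and 47.5 CPM in shControl and 48.9, 27.8 and 51.4 CPM in shIRS2 (log2 -0.85, SE 0.09). Bnip3, a mitophagy receptor that is also a hypoxia gene, differed by -0.75 (SE 0.09). Without shControl 2 the number called was 3, and without shIRS2 2 it was 5. FoxO targets, which insulin signalling holds down, were less uniform, with 4 of 22 called higher and 7 lower. The 4 were Txnip, Klf6 and, chosen after their values were seen, Trib1 and Sod2. Ccng2, a cyclin that rises in arrested cells, held 58.2, 24.0 and 54.4 CPM in shControl and 74.5, 31.2 and 54.0 CPM in shIRS2 (-1.10, SE 0.12), and Sesn3, an antioxidant sestrin, differed by -0.64 (SE 0.17). Of 18 NRF2 genes 4 were called lower, namely Hmox1, heme oxygenase (-0.62, SE 0.10), Slc7a11, Sqstm1 and Nfe2l2, which encodes NRF2. Of the FoxO targets 2 and 3 were called lower without shControl 2 and without shIRS2 2, and of the NRF2 genes 2 and 1.

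The regulators of cell cycle entry differed, while the machinery of division hardly did. Among 12 genes for cyclin-dependent kinase inhibitors, D cyclins, their kinases and the retinoblastoma family 3 were called higher, Ccnd1, Cdk6 and Ccnd2, and 6 lower. Ccnd1, cyclin D1, held 217, 362 and 234 CPM in shControl and 208, 353 and 227 CPM in shIRS2 (log2 0.72, SE 0.07), and Cdk6, its kinase, was higher by 0.58 (SE 0.07). Cdkn1a, which encodes the inhibitor p21, held 58.1, 20.7 and 44.4 CPM in shControl and 68.7, 25.1 and 55.8 CPM in shIRS2 (-1.28, SE 0.12). Cdkn1b, which encodes p27, differed by -0.68 (SE 0.10). In all 4 genes both libraries numbered 2 lay outside the range of the others. Of 45 genes of DNA replication 7 were called higher and 1, E2f1, lower, at a median of 0.07, led by Orc1, an origin-binding protein (0.49, SE 0.10), and Ccne2, a cyclin E (0.42, SE 0.09). That is 15.6% called higher against 10.6% of all genes, and it fell to 0 without shControl 2 and 1 without shIRS2 2. Of 45 genes of mitosis none was called higher and 3 lower, Cdc25b, Aurkb and Ccnb2, at a median of -0.01. Mki67, the usual proliferation marker, held 616, 633 and 604 CPM in shControl and 702, 603 and 630 CPM in shIRS2 (-0.01, SE 0.07), with full overlap. Pcna differed by -0.11 and was not called. Without either library numbered 2 in turn, 3 regulators were called lower in each case, and 0 and 1 mitosis genes.

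Targets of p53 and the MYC network had calls in both directions. Of 20 p53 targets tested 4 were called lower (20%, against 11.2% of all genes) and 2 higher (10%, near the 10.6% of all genes). The 4 were Gdf15, Sesn2, Cdkn1a and Bbc3, and the 2 were Aen, an apoptosis nuclease (log2 0.84, SE 0.09), and Trp53 itself (0.35, SE 0.08). Myc held 347, 478 and 419 CPM in shControl and 327, 479 and 344 CPM in shIRS2 (0.45, SE 0.08), and its partner Max was higher by 0.30 (SE 0.07). Mxd1, Mxd4 and Mxi1, which compete with Myc for Max, were lower at -0.95 (SE 0.19), -0.58 (SE 0.12) and -0.32 (SE 0.09). The remaining 3 of the 8 tested genes of this network were not called. Without shIRS2 2 none of the 8 was called.

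For cholesterol genes the result depended on which number served for comparison. Of 24 cholesterol synthesis and uptake genes 2 were called higher in number 2, among them Hsd17b7 (log2 0.85, SE 0.18), at a list median of 0.04. Against number 1 alone 2 members were called higher and 7 lower, and against number 3 alone 11 higher and 1 lower. Relative to the mean of the 4 others the list median was 0.25, 0.13 and -0.11 in shControl and 0.16, 0.01 and -0.33 in shIRS2, so that library 2 lay between 1 and 3 in each group. Without shControl 2, and likewise without shIRS2 2, no member was called. Between number 3 and number 1 the list median was -0.43 and 9 members were called. Hmgcs1, an early enzyme of the pathway, held 89.0, 87.2 and 62.3 CPM in shControl and 78.7, 80.2 and 48.1 CPM in shIRS2, so that library 3 was the low one. Of 13 fatty acid synthesis genes 1 was called higher and 3 lower, namely Elovl6, an elongase (0.38, SE 0.09), and Srebf1, their transcription factor (-0.47, SE 0.09), Mid1ip1 and Fads1. The count called lower was 0 without shControl 2 and 1 without shIRS2 2. Of 31 proteasome subunits 4 were called higher, Psmd1, Psma3, Psmd12 and Psma4, at a median of 0.07, a share of 12.9% that is near the 10.6% called higher over all genes. None of the 4 was called without shControl 2 or without shIRS2 2. Of 7 pentose phosphate genes Rpia was called higher (0.29, SE 0.10) and Pgls lower (-0.50, SE 0.12). Of 8 Notch receptor and Hes genes Notch2 was called higher (0.26, SE 0.07) and Hes6 lower. Of 10 Wnt targets Cd44 (0.61, SE 0.07), Znrf3 and Ccnd2 were called higher and Sox9 (-0.54, SE 0.10), Tcf7 and Rnf43 lower, Rnf43 having been chosen after its values were seen. Without shControl 2 the Wnt targets called were 1 higher and 0 lower, and without shIRS2 2 they were 1 and 1. None of 11 genes for granins, prohormone processing and exocytosis and none of 11 replication-dependent histones was called.

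**Figure D4:**
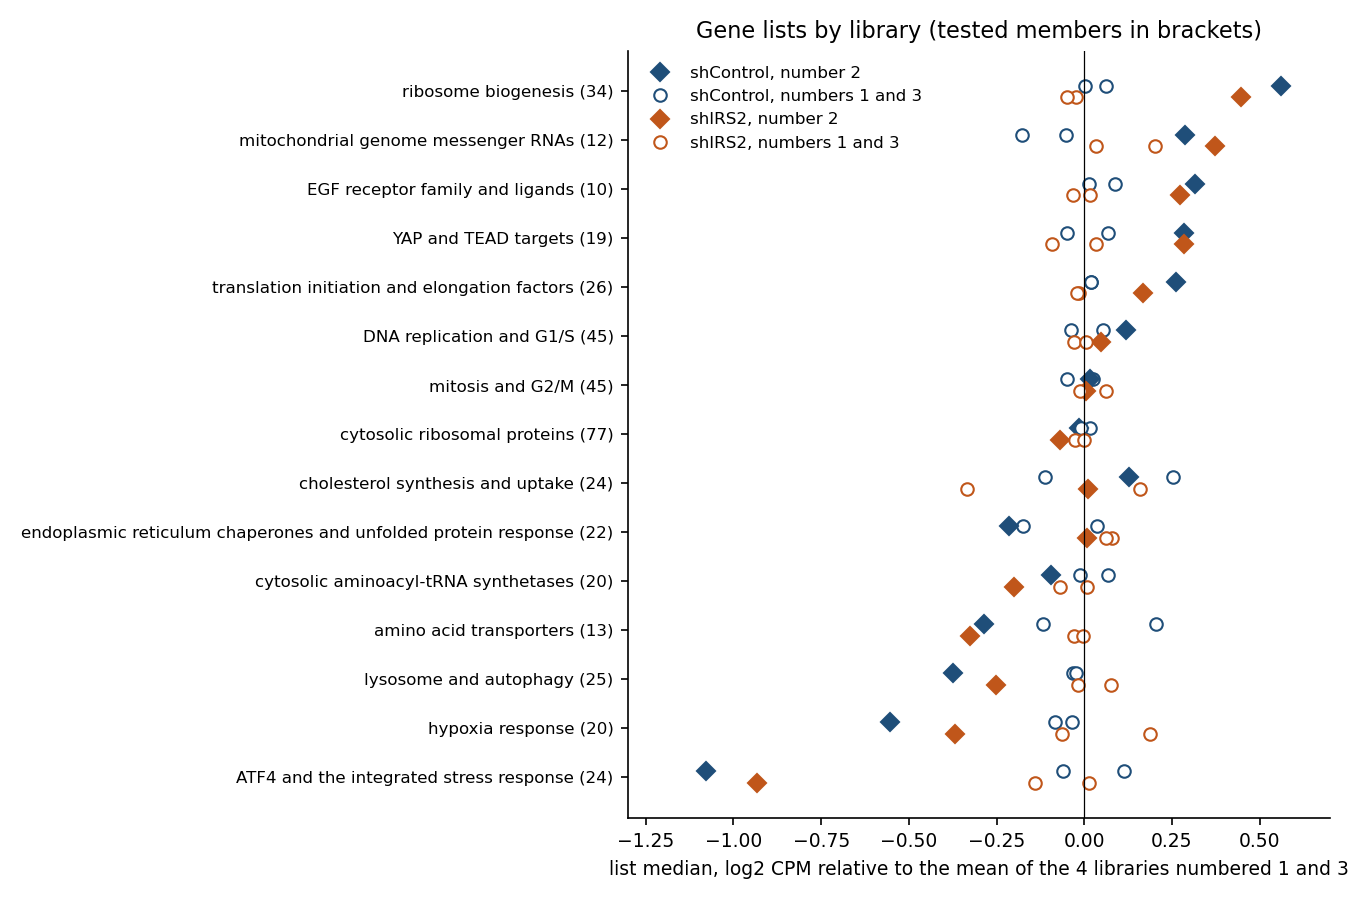
Median log2 CPM of the tested members of 15 gene lists in each library, relative to the mean of the 4 libraries numbered 1 and 3, with shControl in blue, shIRS2 in orange and filled diamonds for number 2. The diamonds stand apart at the top (ribosome biogenesis, 0.56 and 0.45) and the bottom (integrated stress response, -1.08 and -0.93), and lie among the open circles for mitosis and cholesterol synthesis.

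The 15 highest and 15 lowest called genes included several that were not members of the gene lists above. Angptl4, a secreted inhibitor of lipoprotein lipase, had the highest difference, with 12.6, 37.6 and 10.1 CPM in shControl and 8.48, 36.2 and 15.1 CPM in shIRS2 (log2 1.71, SE 0.17). Mfsd2a, a carrier of lysophospholipids, held 5.94, 10.4 and 3.78 CPM in shControl and 3.12, 12.1 and 3.96 CPM in shIRS2 (1.46, SE 0.20). Tnfrsf21, a death receptor, followed at 1.33 (SE 0.14), with 15.7 and 15.6 CPM in number 2 and 5.80 to 6.78 CPM in the others. The rest of the 15 were Hivep3, Plscr2, Nav2, Gpr155, Prickle1, Podxl, Mtmr10 and Ccdc137, from 0.96 to 1.27, beside Txnip, Hbegf, Cyr61 and Thbs1. Prickle1 acts in planar cell polarity, and Podxl is a sialomucin of the cell surface. At the low end Pgf, placental growth factor, held 6.40, 1.31 and 5.59 CPM in shControl and 9.24, 1.95 and 7.15 CPM in shIRS2, and was 4.27-fold lower (-2.09, SE 0.22). Gpr146 (-1.57, SE 0.17), Inpp5j, a phosphoinositide phosphatase (-1.52, SE 0.18), and Elfn2 (-1.44, SE 0.15) came next. Selenbp1, Kif21b, Rusc2 and Sh2d3c lay between -1.40 and -1.32. The other 7 of the 15 were Chac1, Gdf15, Trib3, Ddit4, Sesn2, Slc7a11 and Pck2.

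Most of the defining genes of enteroendocrine cells were at or near 0 counts, in number 2 and outside it. Gcg, which encodes proglucagon, Pyy, Chga, Pcsk1 and Neurod1 had 0 counts in all 6 libraries, and Cck, Chgb, Scg2 and Isl1 had 10, 8, 2 and 1 counts in all. Pax6, a transcription factor of these cells, stood at 19.8 to 27.3 CPM, with number 2 at the bottom (21.5 and 19.8 CPM), and was not called. Nkx2-2, a further marker of these cells, was present at 2.49 to 4.07 CPM. Of 25 enteroendocrine genes 7 were tested and 14 had 0 counts. Of those tested 2 were called lower, Etv1 (log2 -0.44, SE 0.09) and Tph1, chosen after its values were seen (-0.92, SE 0.21). Markers of other cell types did not separate the libraries numbered 2 as lists. None of the 5 epithelial, 3 blood, 3 endothelial and 6 neuronal markers tested was called. Among 7 fibroblast markers Pdgfra was lower (-0.67, SE 0.08), at 35.0 and 46.5 CPM in number 2 against 61.1 to 72.1 CPM in the others, and Pdgfrb was higher (0.33, SE 0.09). The summed fibroblast markers ran from 675 and 891 CPM in number 2 to between 707 and 1024 CPM in the others, with Col3a1 making up most of it. The defining markers Epcam and Ptprc had 1 and 3 counts in all, and Thy1, Fbln1, Adgre1 and Cd3e had 0. Other members of these lists were present. Among the epithelial markers Krt8 stood at 376 to 415 CPM and Tjp1 at 176 to 209 CPM, and among the blood markers Cd14 stood at 9.84 to 16.7 CPM. The part of these markers in the results was not tested.

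Irs2, the target of the hairpin, differed with the number as well. It held 31.6, 22.7 and 34.3 CPM in shControl and 31.4, 28.6 and 38.7 CPM in the libraries labelled shIRS2. The libraries numbered 2 lay below all 4 others, at a log2 difference of -0.38 (SE 0.11), and the libraries labelled shIRS2 were not the low ones. In the comparison of the hairpins, which is the design of the series, edgeR called none (0) of the 13472 genes and DESeq2 called 2. Without adjustment 262 genes had an edgeR p under 0.05, against 673.6 from evenly spread p-values. With the number as a replicate block 1 gene was called and 1234 had an unadjusted p under 0.05. With both libraries numbered 2 left out the count was again 0.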

How the data were processed

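RNA was sequenced from 6 libraries labelled as Glu-tag, 3 per hairpin label. Per the labels' protocols, RNA was taken into TRIzol and poly(A)-selected, and strand was marked with dUTP. Genome build mm10 is named in the labels, per the submitters' processing notes. Neither an aligner nor a counting tool is given in the sources used here, so overlapping genes and near-identical copies are uncertain. The authors deposited raw read counts per gene for 54532 genes, and also FPKM values, used only in an alternative as log2(FPKM + 1).

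Columns are named NC or S with a number, and were matched to the titles by number, with NC read as sh-control and S as sh-IRS2. The comparison of Irs2 between the hairpin labels rests on this reading. Counts were fitted in R 4.3.3 with edgeR 4.0.16 (filterByExpr by hairpin, which kept 13472 genes holding 99.9% of counts, TMM scaling, robust quasi-likelihood test). The model held the hairpin and the number 2 against 1 and 3. Called means a Benjamini-Hochberg adjusted p under 0.05 over all genes kept. Values per library are CPM, and values within a hairpin group are log2 CPM with a prior count of 2. DESeq2 1.42.0 and limma 3.58.1 served as alternatives.

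The members, markers and 46 gene lists were chosen with earlier results of these data known. Named are the markers, the 15 highest and 15 lowest called genes whose mean reached 5 CPM, a fixed set of growth and identity genes, and up to 6 members per list with the largest difference and that level. Genes outside this rule are marked in the text as chosen after seeing their values. The values of a few genes the rule would name are not reported here. Nothing in the labels says that the libraries came from separate cultures, so a p-value here reflects only variation among these libraries, which may be technical. The numbers were checked for pairing. Deviations from the hairpin group's mean correlated at 0.167, 0.576 and 0.260 for numbers 1, 2 and 3, all above the 0.1 taken as a sign of pairing. The crossed pairs of numbers 1 and 3 correlated at similar values, 0.189 and 0.199, so the check sets number 2 apart and does not show that numbers 1 and 3 pair libraries. Standard errors and the limit for 0 counts cover these libraries and counting error only, since no molecular identifiers are described and several reads can stem from one molecule.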

Additional observations from a re-analysis of the deposited data

Results flagged for a closer look

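Gm15920 (ENSMUSG00000080893), a processed pseudogene on the plus strand of chromosome 5 from 130188395 to 130188796 in mm10, was the single gene whose number-2 difference itself differed between the hairpins, with an edgeR adjusted p of 0.0111. It held 34.0, 43.4 and 37.8 CPM in shControl 1, 2 and 3 and 35.6, 15.5 and 37.3 CPM in the shIRS2 libraries. Library 2 was the highest of its group in shControl (log2 0.31) and the lowest in shIRS2 (log2 -1.20), a difference between groups of -1.51 (SE 0.22). The counting of reads shared between a processed pseudogene and its parent gene is not given in the sources used here, and its part in this value was not tested.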

How the results depend on the processing

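The count of 2499 genes called in number 2 lay between 1993 and 2768 with another count test, scaling, filter or reference number, or with the hairpin term left out. With limma on log2(FPKM + 1) it was 1501 (769 higher, 732 lower). Leaving out single libraries gave 413 (234 higher, 179 lower) without shControl 2 to 2655 (1271 higher, 1384 lower) without shIRS2 1. Without scaling factors 39.4% of the called genes were higher, against 48.5% in the reported fit. Of the 179 called genes that are named, 80 were lost both without shControl 2 and without shIRS2 2. For hairpin by number, 5 genes were called with no filter and 1 to 17 with single libraries left out. For number 3 against 1 the range was 64 to 264. For the hairpins, the replicate block called 1 gene and DESeq2 2. Some small list medians changed sign. Fatty acid synthesis reached 0.0192 and the epithelial markers 0.0415 against number 3 only, and the fibroblast markers -0.0195 against number 1 only. With single libraries left out the epithelial markers ran from -0.568 to 0.0721, the fibroblast markers from -0.0549 to 0.357, the endothelial markers from -0.527 to 0.173 and the histones from -0.129 to 0.00919. The cause was not tested. With 1 library per number and hairpin, genes of low count were resolved only where the difference was large.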
